A study of Mus musculus with 6 samples.

Results

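The genes described here are 10 LIM-domain adaptors of the cytoskeleton, namely the PDZ-LIM genes Pdlim1, Pdlim2, Pdlim5 and Pdlim7, the PINCH genes Lims1 and Lims2, the FHL genes Fhl1, Fhl2 and Fhl3, and Tgfb1i1, which encodes Hic-5. They were taken by symbol from a table of 16423 genes, with the difference between siYBX1 and siNC already known, so their values in this comparison are given as a description and without a test. All 10 had a mean of at least 1 FPKM (sequenced fragments scaled to gene length and to the library's total), the level from which genes entered the test across all genes.

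The siYBX1 libraries (n = 3) came from C3H10T1/2 cells given siRNAs against Ybx1, and the siNC libraries (n = 3) from the same cells given a control siRNA. C3H10T1/2 is a mouse mesenchymal cell line that can form adipocytes. Both groups had been differentiated for 2 days with isobutylmethylxanthine, dexamethasone, insulin, triiodothyronine, indomethacin and rosiglitazone, then kept for 2 days in triiodothyronine, insulin and rosiglitazone. The labels call them mesenchymal stem cells, and the series speaks of brown adipocytes. They were transfected on day 4 and harvested 48 h later. The labels do not say whether replicates were separate cultures, so the errors and p-values below cover variation among libraries alone, and that variation may be technical.

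The LIM domain is a pair of zinc fingers that binds other proteins. In PDZ-LIM proteins it is joined to a PDZ domain that holds them to α-actinin on actin filaments, PINCH proteins place integrin-linked kinase (ILK) and parvin at integrin adhesions, and FHL proteins and Hic-5 move between adhesions or filaments and the nucleus, where they act as cofactors of transcription. Many of these genes are known from muscle and from fibroblasts under tension, and less from adipocytes.

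Library totals recovered from the FPKM steps were 31957411 to 35410308 reads for siYBX1 and 34207232 to 35299269 reads for siNC. Ybx1, the targeted gene, had 59.3, 67.9 and 61.3 FPKM in siYBX1 libraries 1 to 3 and 135, 134 and 129.6 FPKM in siNC libraries 1 to 3, a log2 fold change of -1.07 (adjusted p = 3.98e-06, limma). The adipocyte markers listed for this work had 9 of 10 genes at a mean of 1 FPKM or more, with Cebpa below it, and summed to 3068 to 3563 FPKM in siYBX1 and 2575 to 3508 FPKM in siNC. Of the 9, 0 rose and 1, Cfd, fell. Of 7 brown adipocyte markers only Cidea and Cox8b reached 1 FPKM, and Ppargc1a, Dio2, Prdm16, Elovl3 and Ebf2 did not. The 7 summed to 122 to 196 FPKM in siYBX1 and 121 to 156 FPKM in siNC, with none called. Among siNC libraries, replicate 1 stood somewhat apart, with a median absolute log2 difference over the tested genes of 0.109 and 0.0967 from replicates 2 and 3, against 0.0585 between those.

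In siYBX1 cells Pdlim2 had the highest FPKM of the 10 and Pdlim1 the lowest. Mean levels there ran from 96.0 ± 4.22 FPKM for Pdlim2 through Fhl2, Tgfb1i1, Pdlim7, Pdlim5, Fhl1, Lims1, Fhl3 and Lims2 to 3.18 ± 0.137 FPKM for Pdlim1 (SD, n = 3 each). Neighbours in this order had ranges that did not overlap, except Pdlim7 and Pdlim5. In siNC cells Pdlim2, Fhl2 and Tgfb1i1 also held the first places, followed by Pdlim5, Lims1, Pdlim7, Fhl1, Fhl3, Pdlim1 and Lims2, from 73.8 ± 7.45 FPKM for Pdlim2 to 1.92 ± 0.526 FPKM for Lims2 (SD, n = 3 each). The one pair of neighbours that overlapped there was Lims1 and Pdlim7. These levels depend on the length each gene was given. That length, recovered from the FPKM steps, was 8883 bases for Lims1, 1.82 times its merged exons in GENCODE vM21, and 1505 bases for Pdlim1, 0.286 times. It was 1887 bases for Pdlim2, 0.421 times, and 1977 bases for Tgfb1i1, 0.354 times. The order above, with Pdlim2 first, rests on these lengths. Levels of different genes are therefore less certain than the levels of 1 gene across libraries.

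The 10 genes together summed to 322, 336 and 323 FPKM in siYBX1 libraries 1 to 3, against 246, 252 and 258 FPKM in siNC libraries 1 to 3. For 7 of the 10 all siYBX1 libraries lay above all siNC libraries, and for Pdlim1, Lims1 and Fhl2 the groups overlapped. Among the 10341 genes tested, 19% had all siYBX1 libraries above all siNC libraries. The same 7 genes were called higher and 0 were called lower by limma across all genes (adjusted p below 0.05), and Pdlim1, Lims1 and Fhl2 were not called. Over all tested genes 9.54% were called higher and 11.1% lower. The genes were chosen from this comparison, so nothing is read from these counts. With libraries scaled to TPM the calls over all genes were 662 higher and 1573 lower, against 987 and 1145. The median SD of log2(FPKM + 1) over the 10 genes was 0.0507 in siYBX1 and 0.0994 in siNC, and over all tested genes 0.0694 in siYBX1 and 0.0751 in siNC, so the controls were the more variable group for these genes. In bulk RNA, more cells of a kind and more RNA per cell cannot be told apart.

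Smooth muscle and myofibroblast markers differed in the same direction as the 7 adaptors that separated. Of 9 such genes 7 reached a mean of 1 FPKM, 6 rose and 0 fell, against 9.54% higher and 11.1% lower of all tested genes. The 9 summed to 2054 to 2158 FPKM in siYBX1 and 607 to 675 FPKM in siNC. Most of this was Acta2, with means of 1671 FPKM in siYBX1 and 518 FPKM in siNC, and Myl9, with 301 and 89.6 FPKM. Smtn did not rise, with means of 8.77 FPKM in siYBX1 and 9.59 FPKM in siNC. Of the defining genes of mature smooth muscle, Cnn1 lay at 0.0696 to 0.0771 FPKM in siYBX1 and 0.072 to 0.140 FPKM in siNC, and Myh11 averaged 0.0887 FPKM in siYBX1 and 0.134 FPKM in siNC. Of 7 skeletal muscle genes measured, 2 reached 1 FPKM and 1 rose, with 6.20 to 7.56 FPKM summed in siYBX1 and 4.30 to 5.96 FPKM in siNC, and Myod1 was at 0 in siYBX1 and averaged 0.00517 FPKM in siNC. None of 5 cardiac muscle genes reached 1 FPKM, with sums of 0.751 to 1.02 FPKM in siYBX1 and 0.699 to 1.15 FPKM in siNC. Mesenchymal progenitor markers (3 of 5 at 1 FPKM or more) summed to 497 to 519 FPKM in siYBX1 and 539 to 559 FPKM in siNC, and macrophage markers (1 of 4, Cd68) to 6.83 to 11.2 FPKM in siYBX1 and 10.9 to 24.4 FPKM in siNC, with none called in either list. Both measured endothelial markers were below 0.1 FPKM in every library. The part of these markers in the adaptors' values was not tested. All marker lists were chosen with earlier results of these data known, so their counts are no independent comparison.

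**Figure D1:**
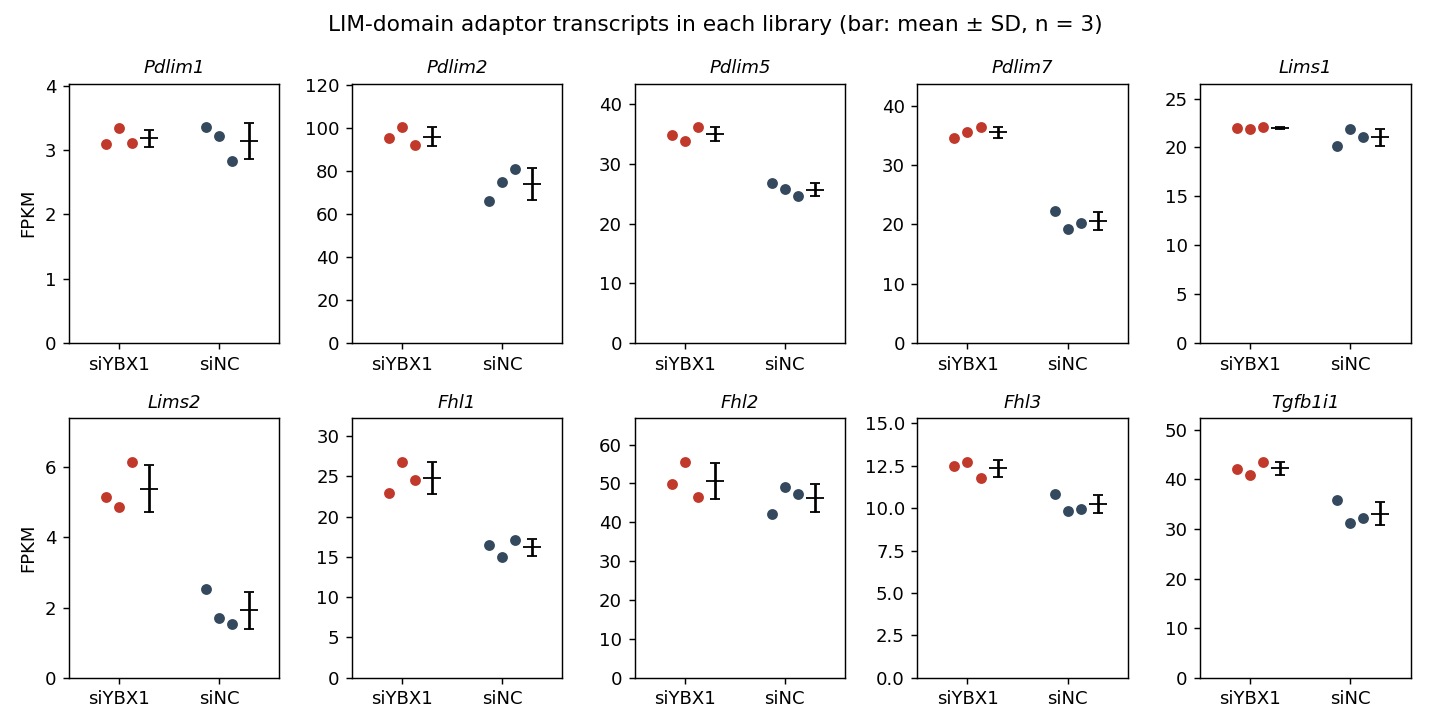
FPKM of the 10 adaptor genes in each library, siYBX1 at the left and siNC at the right of each panel, with points in the order of replicates 1 to 3 and the mean ± SD (n = 3) beside them. All axes start at 0, and the 7 genes whose groups do not overlap are Pdlim2, Pdlim5, Pdlim7, Lims2, Fhl1, Fhl3 and Tgfb1i1.

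Among the PDZ-LIM genes, Pdlim7 showed the widest separation. It encodes Enigma, a protein with a PDZ domain and several LIM domains that binds actin filaments through tropomyosin. Pdlim7 had 34.6, 35.6 and 36.5 FPKM in siYBX1 libraries 1 to 3 and 22.2, 19.2 and 20.3 FPKM in siNC libraries 1 to 3. The means were 35.5 ± 0.962 FPKM in siYBX1 and 20.6 ± 1.52 FPKM in siNC (SD, n = 3 each). The lowest siYBX1 library was 1.56 times the highest siNC library. The ratio of means was 1.73, and the log2 fold change on log2(FPKM + 1) was 0.76 (SE 0.06), the 23rd highest of all tested genes.

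Pdlim5, which encodes the Enigma homolog ENH, a scaffold for protein kinase C in muscle, had 34.9, 33.8 and 36.2 FPKM in siYBX1 libraries 1 to 3 and 26.7, 25.8 and 24.6 FPKM in siNC libraries 1 to 3. Every siYBX1 library was at least 1.27 times the highest siNC library, and the log2 fold change was 0.43 (SE 0.05). In FPKM, Pdlim5 and Pdlim7 overlapped in siYBX1 cells, whereas in siNC cells Pdlim5 was the higher of the pair in every library. Pdlim2, an adaptor that in immune cells also promotes degradation of transcription factors, had 95.3, 100.5 and 92.2 FPKM in siYBX1 libraries 1 to 3 and 65.9, 74.7 and 80.8 FPKM in siNC libraries 1 to 3. Its siNC values were spread more widely, with a coefficient of variation of 10.1% against 4.40% in siYBX1, and the groups did not overlap. Its log2 fold change was 0.38 (SE 0.07).

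Pdlim1, which encodes CLP36, an α-actinin binding protein of stress fibres, showed no such separation. It had 3.10, 3.34 and 3.11 FPKM in siYBX1 libraries 1 to 3 and 3.36, 3.22 and 2.82 FPKM in siNC libraries 1 to 3, from 149 to 178 reads per library. The highest and lowest values both belonged to siNC libraries. The log2 fold change was 0.02 (SE 0.07), with a 95% confidence interval of -0.14 to 0.18. It was taken on log2(FPKM + 1), a scale that understates changes at such low levels. Its sign turned negative when the libraries were rescaled to TPM (-0.03), after a correction for gene length (-0.03), without siYBX1 replicate 2 (-0.01) and without siNC replicate 3 (-0.04).

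The 4 PDZ-LIM adaptors summed to 169.7 ± 3.10 FPKM in siYBX1 and 123 ± 5.13 FPKM in siNC (SD, n = 3 each). Pdlim2 supplied most of this sum in both groups, 56.6 ± 1.58% in siYBX1 and 59.8 ± 3.64% in siNC (SD, n = 3 each), and these shares overlapped. That majority rests on the length given to Pdlim2, 0.421 times its merged exons. In reads, which are not scaled to length, Pdlim5 exceeded Pdlim2 in every library. Pdlim5 had 7233 to 7831 reads in siYBX1 and 5625 to 6028 in siNC. Pdlim2 had 5749 to 6718 reads in siYBX1 and 4328 to 5380 in siNC. The share of Pdlim7 was 20.6%, 20.5% and 21.7% in siYBX1 libraries 1 to 3, against 18.8%, 15.6% and 15.8% in siNC libraries 1 to 3. Pdlim7 thus made up more of the sum of these 4 genes in every siYBX1 library, while the share of Pdlim5 was 20.6% in siYBX1 and 20.9% in siNC. The sum leaves out Ldb3, another PDZ-LIM gene, best known from the Z-disc of striated muscle, which averaged 20.5 ± 0.956 FPKM in siYBX1 and 17.3 ± 1.84 FPKM in siNC (SD, n = 3 each; log2 fold change 0.24, adjusted p = 0.0467, limma). Ldb3 passed in 5 of 13 alternatives, with adjusted p up to 0.148.

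Of the PINCH genes, Lims2 separated by group and Lims1 did not. Lims2, which encodes PINCH2, had 5.16, 4.86 and 6.16 FPKM in siYBX1 libraries 1 to 3 and 2.52, 1.71 and 1.54 FPKM in siNC libraries 1 to 3. The lowest siYBX1 library was 1.93 times the highest siNC library. These values rest on 514, 537 and 641 reads in siYBX1 libraries 1 to 3 and on 274, 182 and 170 reads in siNC libraries 1 to 3. The log2 fold change was 1.14 (SE 0.12) on log2(FPKM + 1), a scale that understates changes at such low levels, and 1.51 on the recovered reads. It was the 8th highest of the tested genes. Lims2 also varied most of the 10 within siNC, with a coefficient of variation of 27.3%, and replicate 1 was the highest control. Without siNC replicate 1 the ratio of means was 3.32, against 2.80 with it.

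Lims1, which encodes PINCH1, the PINCH protein found in most cells, had 22.0, 21.9 and 22.1 FPKM in siYBX1 libraries 1 to 3 and 20.1, 21.9 and 21.1 FPKM in siNC libraries 1 to 3. The groups overlapped through siNC replicate 2. Its log2 fold change was 0.06 (SE 0.05), with a 95% confidence interval of -0.05 to 0.18. Lims1 was the steadiest of the 10 in siYBX1, with a coefficient of variation of 0.549%.

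The makeup of the PINCH pool differed accordingly. Lims2 was 19.0%, 18.2% and 21.8% of the summed PINCH FPKM in siYBX1 libraries 1 to 3 and 11.1%, 7.22% and 6.82% in siNC libraries 1 to 3. The difference in mean share was 11.3 percentage points, and 12.6 points without siNC replicate 1. Counted in reads and so without the gene lengths, Lims2 was 7.92 ± 0.880% of PINCH reads in siYBX1 and 3.13 ± 0.946% in siNC (SD, n = 3 each). By either measure Lims1 made up most of the pool in every library.

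**Figure D2:**
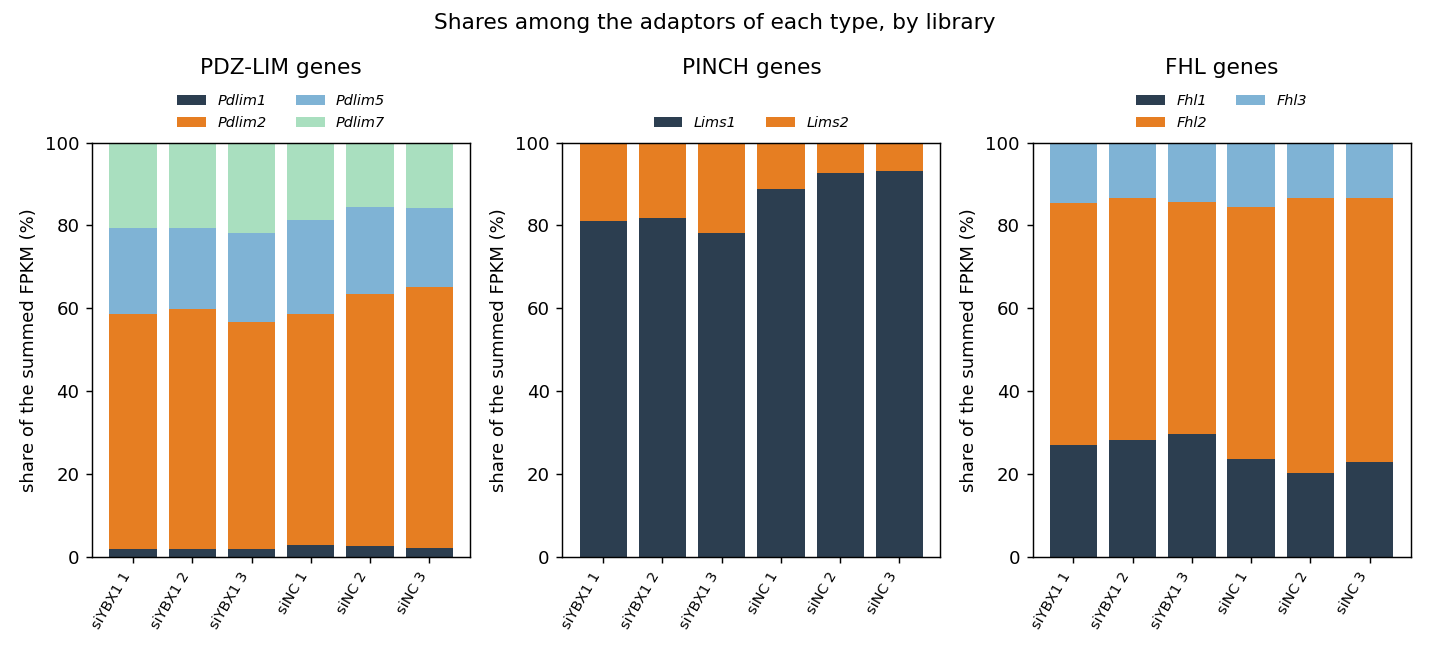
Share of the summed FPKM of the PDZ-LIM, PINCH and FHL adaptors held by each gene, 1 bar per library, with siYBX1 libraries at the left and siNC libraries at the right of each panel. Lims2 takes 18.2% to 21.8% of the PINCH sum in siYBX1 and 6.82% to 11.1% in siNC, and Fhl1 and Pdlim7 also take more of their sums in every siYBX1 library.

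Among the FHL genes, Fhl1 was higher in siYBX1 and Fhl2, the most abundant, overlapped between groups. Fhl1, best known from striated muscle, where human mutations cause myopathy, had 22.9, 26.8 and 24.6 FPKM in siYBX1 libraries 1 to 3 and 16.5, 15.01 and 17.1 FPKM in siNC libraries 1 to 3. The lowest siYBX1 library was 1.34 times the highest siNC library, the ratio of means was 1.53, and the log2 fold change was 0.59 (SE 0.07). Fhl2, a cofactor of transcription that also binds integrins, had 49.8, 55.6 and 46.5 FPKM in siYBX1 libraries 1 to 3 and 42.1, 49.1 and 47.3 FPKM in siNC libraries 1 to 3. Only siYBX1 replicates 1 and 2 lay above all controls. The log2 fold change of Fhl2 was 0.13 (SE 0.08), with a 95% confidence interval of -0.04 to 0.30.

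Fhl3, an actin-binding member of the family, had 12.5, 12.8 and 11.8 FPKM in siYBX1 libraries 1 to 3 and 10.8, 9.87 and 9.97 FPKM in siNC libraries 1 to 3. The separation was narrow, the lowest siYBX1 library being 1.09 times the highest siNC library, and the log2 fold change was 0.25 (SE 0.06). Of the 7 called genes Fhl3 alone lost its call when a library was left out, which happened without siYBX1 replicate 1, without siYBX1 replicate 2 and without siNC replicate 3. Fhl1 made up 28.2 ± 1.40% of the summed FPKM of the 3 FHL adaptors in siYBX1 and 22.3 ± 1.79% in siNC, and Fhl2 57.7 ± 1.36% in siYBX1 and 63.6 ± 2.84% in siNC (SD, n = 3 each). The share of Fhl3 was 14.1% in both groups.

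Fhl2 is a known target of serum response factor, which binds the CArG box. RefSeq promoter windows of build GRCm38.p6, from 250 bases before to 50 bases after an annotated start, matched 7 of the 10 genes, with 12 windows in all, and Pdlim2, Lims2 and Tgfb1i1 had no entry. A CArG box was present in 3 of these 12 windows, in both windows of Fhl2 and in 1 of 2 of Fhl1, and in 1.63% of all 32851 windows. The 250 bases before the start of those windows are shown 5′ to 3′ on the gene's strand because they hold these matches, which are in capitals and begin 102, 96 and 31 bases before the start.
Fhl1 (chrX:56779433-56779682, plus strand): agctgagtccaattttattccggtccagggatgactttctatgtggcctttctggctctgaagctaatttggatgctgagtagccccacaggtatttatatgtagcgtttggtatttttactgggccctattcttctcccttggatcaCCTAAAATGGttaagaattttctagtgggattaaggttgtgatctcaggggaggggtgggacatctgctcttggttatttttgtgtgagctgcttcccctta
Fhl2, outer start (chr1:43196762-43197011, minus strand): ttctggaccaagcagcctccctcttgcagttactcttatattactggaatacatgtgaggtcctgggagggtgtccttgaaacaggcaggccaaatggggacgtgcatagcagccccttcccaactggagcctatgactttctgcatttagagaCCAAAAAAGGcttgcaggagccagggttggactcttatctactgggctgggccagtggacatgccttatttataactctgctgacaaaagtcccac
Fhl2, inner start (chr1:43163962-43164211, minus strand): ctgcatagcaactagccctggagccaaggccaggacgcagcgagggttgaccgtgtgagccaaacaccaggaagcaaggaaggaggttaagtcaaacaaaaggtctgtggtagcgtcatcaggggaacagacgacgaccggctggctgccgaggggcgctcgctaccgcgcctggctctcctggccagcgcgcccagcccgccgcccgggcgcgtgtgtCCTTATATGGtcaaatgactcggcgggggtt

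The GC box (GGGCGG, either strand) was in 6 of the 12 windows, against 35.7% of all windows, and overlapped none of the CArG boxes. The TEAD motif (CATTCC, either strand) and the AP-1 motif (TGANTCA) were in 0 of the 12, against 14.7% and 7.81% of all windows. A match describes letters in these windows and not a bound site, and the FPKM values do not tell which start was used. Of the genes with a CArG box, Fhl1 separated by group and Fhl2 did not. Pdlim5, Pdlim7 and Fhl3 separated without a CArG box in their windows, and those of Lims1 and Pdlim1 held none either. Pdlim2, Lims2 and Tgfb1i1, which had no entry, also separated. The part of these motifs in the adaptors' values was not tested.

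Tgfb1i1 encodes Hic-5, a close relative of paxillin that was first found as a gene induced by TGF-β1. It had 42.2, 41.0 and 43.6 FPKM in siYBX1 libraries 1 to 3 and 35.8, 31.3 and 32.2 FPKM in siNC libraries 1 to 3. All siYBX1 libraries were higher, with the lowest 1.14 times the highest siNC library, and the log2 fold change was 0.34 (SE 0.06). Pxn, which encodes paxillin, was 14.4 ± 0.832 FPKM in siYBX1 and 13.7 ± 0.783 FPKM in siNC (SD, n = 3 each) and did not pass (adjusted p = 0.475, limma). Tgfb1i1 was 2.94 ± 0.0909 times Pxn in siYBX1 and 2.42 ± 0.0432 times Pxn in siNC (SD, n = 3 each). The size of this ratio depends on the lengths given to the genes, which for Tgfb1i1 was 0.354 times its merged exons.

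The adaptors were set beside a list of 49 other LIM-domain genes, written from family knowledge with earlier results of these data known. It is therefore no independent comparison. Of the 49, 28 were abundant enough to test. Of these, 11 rose and 4 fell in siYBX1 and 13 did not pass, with a median log2 fold change of 0.09, against a median of -0.01 over all tested genes. That is 39.3% higher and 14.3% lower, against 9.54% and 11.1% of all tested genes. Csrp1, a cysteine-rich LIM protein of actin filaments, rose to 208 ± 2.58 FPKM in siYBX1, against 119.6 ± 3.14 FPKM in siNC (SD, n = 3 each; log2 fold change 0.79, adjusted p = 8.26e-06, limma). Zyx, which encodes zyxin, a protein of stressed actin fibres, had a log2 fold change of 0.58 (adjusted p = 0.000113, limma) and Tes, which encodes testin, of 0.33 (adjusted p = 0.00573). The largest falls were those of Ablim1, an actin-binding LIM protein (-0.37, adjusted p = 0.00314), Micall2, which acts in membrane traffic to junctions (-0.33, adjusted p = 0.00578), and Limd1, a zyxin relative (-0.31, adjusted p = 0.0148). Without siYBX1 replicate 3 only 6 of the 28 rose, against 7.51% of all tested genes in that fit. Without siNC replicate 2, and separately with TPM, 7 rose, against 8.06% and 6.4% of all tested genes, and without siYBX1 replicate 1 only 2 fell, against 5.84%. The call of Limd1 was lost without siYBX1 replicate 1, without siNC replicate 3 and without the filter on low genes.

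**Figure D3:**
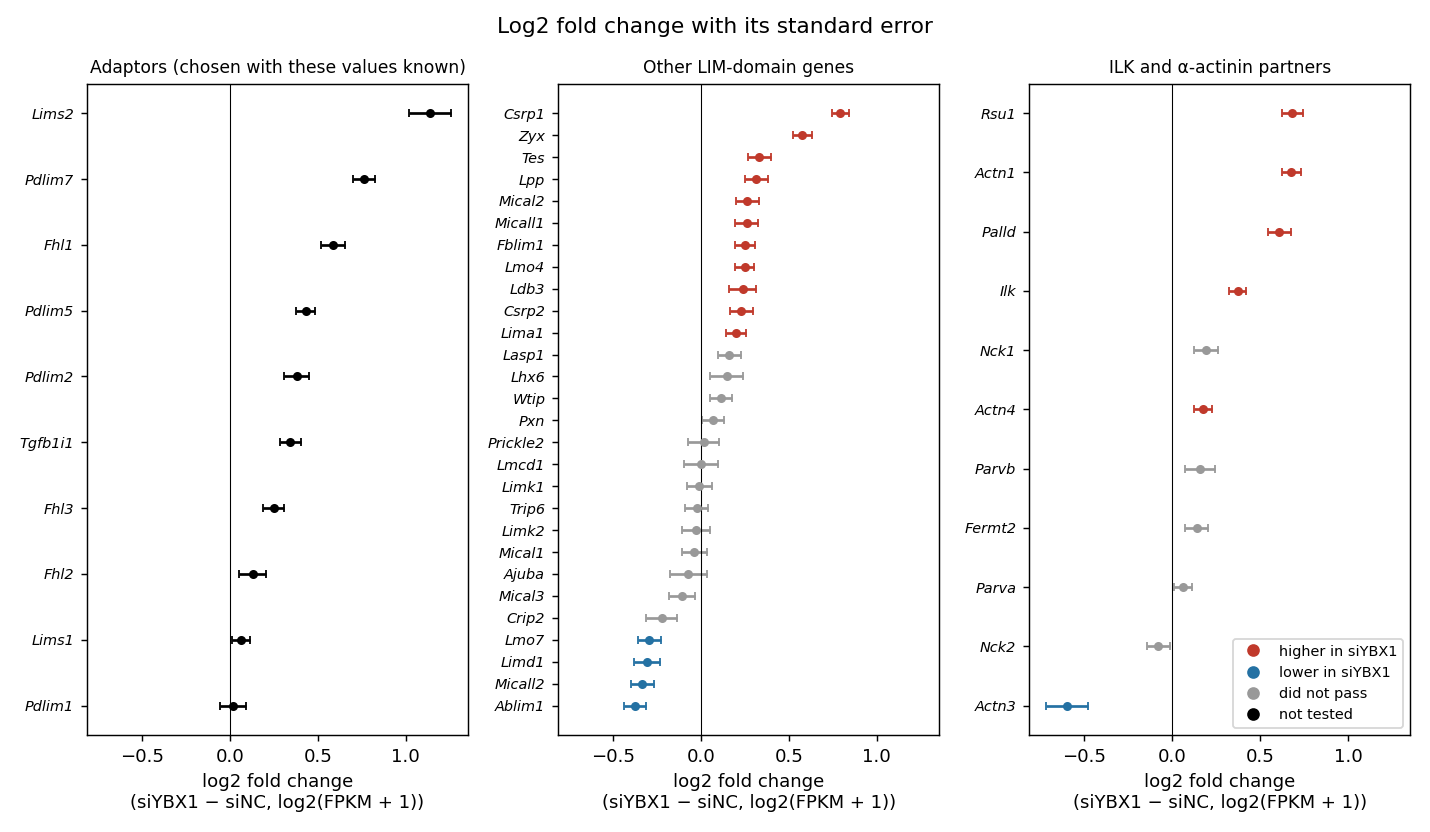
Log2 fold change (siYBX1 minus siNC, on log2(FPKM + 1)) with its standard error for the adaptors, for the tested other LIM-domain genes and for the tested partners of PINCH and PDZ-LIM proteins. The adaptors run from 0.02 for Pdlim1 to 1.14 for Lims2, and the other lists hold genes on both sides of 0.

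The partners of PINCH and PDZ-LIM proteins were also listed with earlier results of these data known, so their counts are no independent comparison. In the complex that PINCH forms with ILK and parvin, 2 of 7 tested genes rose, 0 fell and 5 did not pass, against 9.54% higher and 11.1% lower among all tested genes. The genes that rose were Rsu1, whose product binds PINCH1, at 159 ± 6.75 FPKM in siYBX1 and 98.8 ± 6.42 FPKM in siNC (SD, n = 3 each; log2 fold change 0.68, adjusted p = 0.000102, limma), and Ilk, at 154 ± 2.42 FPKM in siYBX1 and 119 ± 3.14 FPKM in siNC (SD, n = 3 each; 0.37, adjusted p = 0.000918). Parva, which encodes α-parvin, did not pass (0.06, adjusted p = 0.405). Summed PINCH transcripts were 17.8 ± 0.706% of Ilk in siYBX1 and 19.3 ± 0.893% in siNC (SD, n = 3 each), ranges that overlapped. Lims2 alone was 3.50 ± 0.479% of Ilk in siYBX1 and 1.61 ± 0.398% in siNC, whereas Lims1 was 14.3 ± 0.254% in siYBX1 and 17.7 ± 1.19% in siNC (SD, n = 3 each). The sizes of these percentages depend on the length given to each gene, which for Lims1 was 1.82 times its merged exons.

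**Figure D4:**
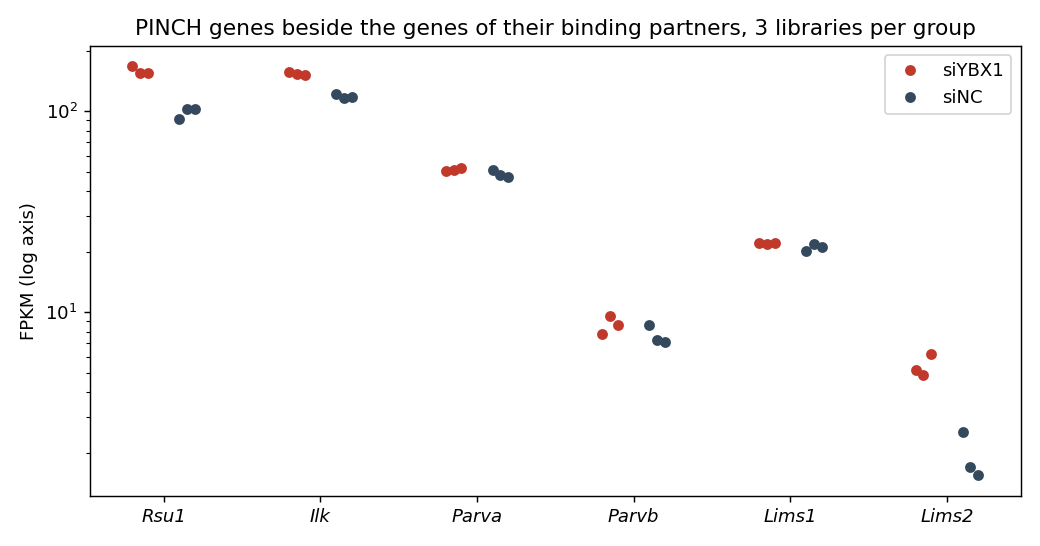
FPKM on a log axis of Lims1 and Lims2 beside genes of the ILK complex, with siYBX1 libraries left of siNC libraries for each gene. Rsu1, Ilk and Lims2 separate by group, and Parva, Parvb and Lims1 overlap.

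Among the α-actinins and palladin, which PDZ-LIM proteins bind or join on stress fibres, 3 of 4 tested genes rose and 1 fell, to be read against the same shares of all tested genes. Actn1, the α-actinin of stress fibres and adhesions, rose to 78.9 ± 1.81 FPKM in siYBX1, against 49.0 ± 2.39 FPKM in siNC (SD, n = 3 each; log2 fold change 0.68, adjusted p = 4.04e-05, limma). Palld, which encodes palladin, had a log2 fold change of 0.61 (adjusted p = 0.000267, limma) and Actn4, another α-actinin outside muscle, of 0.18 (adjusted p = 0.0318), which passed in only 5 of 13 alternatives. Actn3, the α-actinin of fast muscle, was low and fell to 1.39 ± 0.254 FPKM in siYBX1, against 2.62 ± 0.593 FPKM in siNC (SD, n = 3 each; log2 fold change -0.60, adjusted p = 0.00677, limma). Without the filter on low genes Actn3 did not pass (adjusted p = 0.0579).

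Genes with the most similar profiles over the 6 libraries were sought for Lims2, Pdlim7 and Pdlim1 among 10139 tested genes, as the smallest root mean square difference of centred log2(FPKM + 1). The profiles hold the difference between the groups by which the adaptors were chosen, so the nearest genes largely share its size, and they are given as a description. For Lims2 these were Nexn (0.172), an actin-binding protein, Mustn1 (0.175), a small protein of the musculoskeletal system, and Itga5 (0.191), the fibronectin receptor's α5 integrin. Their log2 fold changes were 1.18, 1.04 and 0.83, against 1.14 for Lims2. Pdlim7 was nearest to Itga5 (0.0393), to Itga1 (0.0477), a collagen-binding integrin, and to Dtna (0.0576), which encodes dystrobrevin, with log2 fold changes of 0.83, 0.72 and 0.66, against 0.76 for Pdlim7. This scale understates changes at low levels, so near profiles need not mean like ratios. Mean FPKM in siYBX1 and siNC were 2.40 and 1.06 for Itga1, against 35.5 and 20.6 for Pdlim7. They were 60.7 and 33.6 for Itga5, against 5.39 and 1.92 for Lims2. Pdlim1 was nearest to Fam217b (0.016), Dut (0.0204) and Sympk (0.0221), genes with log2 fold changes between -0.01 and 0.02.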

How the data were processed

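RNA sequencing was compared between 3 siYBX1 and 3 siNC libraries. Total RNA (1.3 µg per library) was extracted with Trizol, per the labels' protocols. Software named in the submitters' processing notes comprises fastp, HISAT2 and HTSeq, with build GRCm39 and without versions or roles, and strand and the handling of shared reads are not given in the sources used here. The authors deposited FPKM values, whose columns were matched to samples by group name and number. FPKM moves in steps of 1 read, so library totals, gene lengths and whole reads were recovered for 16423 of 16423 genes (tolerance 0.02 reads). Intervals cover the spread between libraries, and reads without molecular identifiers are not independent molecules.

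Genes averaging 1 FPKM or more over the 6 libraries (10341) were tested on log2(FPKM + 1) by limma 3.58.1 in R 4.3.3 with its trend option, two-sided, with Benjamini-Hochberg adjustment over all of them and a threshold of 0.05. It was tested on simulated data, with known changes in few genes and a common spread, a simpler setting than these data. The adaptors, lists and motifs were chosen with earlier results of these data known. Beside the adaptors, the named genes are up to 3 called rises and 3 called falls per list, with Ilk, Parva, Actn1, Actn4 and Ybx1 whatever their result, and the 3 genes nearest in profile to each of the 2 adaptors with the highest and the 1 with the lowest fold change (gene models without a name left out). Pxn, Parvb, Ldb3 and marker genes were named after their values were seen. Alternatives were a pseudocount of 0.1, no filter, TPM, quantile normalization, each library left out, a replicate block, limma's voom on recovered reads (mean of at least 10 reads) and a length correction (loess, span 0.3).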

Additional observations from a re-analysis of the deposited data

How the results depend on the processing

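Across 13 alternatives the log2 fold changes of Pdlim2, Pdlim5, Pdlim7, Lims2, Fhl1 and Tgfb1i1 stayed positive and past the threshold. Lims2 ranged from 1.04 to 1.51 and Pdlim7 from 0.72 to 0.82. Fhl3 passed in 10 of 13, and Fhl2, Lims1 and Pdlim1 in 0 of 13. The adaptors were chosen from this comparison and the alternatives reuse its libraries, so these passes are a description and no independent support. Without a filter 1241 genes were called (577 higher, 664 lower), against 2132 (987 higher, 1145 lower), and TPM gave 662 higher and 1573 lower. Without a filter 3.51% of all genes were called higher and 4.04% lower. Of the 44 other LIM-domain genes then tested 8 were called (6 higher, 2 lower), and 0 partners were called lower. Actn3 and Limd1 were among those lost. With TPM 7 other LIM-domain genes were called higher, against 6.4% of all tested genes. Leaving out 1 library gave 1199 to 2026 calls (547 to 970 higher, 604 to 1056 lower), with the fewest in all without siYBX1 replicate 1 and the fewest higher without siYBX1 replicate 2. It also gave 6 to 12 other LIM-domain genes higher and 2 to 4 lower, against 5.29% to 9.38% higher and 5.84% to 10.2% lower of all tested genes. Ldb3 ranged from 0.15 to 0.30. Replicate numbers showed no visible pairing of the libraries. Deviations of same-numbered libraries from their group means correlated at -0.31, -0.13 and -0.25, and no library correlated best with its own number. Deviations within a group sum to 0, so these correlations are not independent and cannot settle whether the cultures were paired. With the replicate block 1346 genes were called (607 higher, 739 lower), and Actn4 was lost. Of the other LIM-domain genes 8 were then called higher, against 11 without the block, and 4 lower. With the block 5.87% of all tested genes were called higher and 7.15% lower. The cause of these shifts was not tested, other than that leaving out a library leaves fewer samples and dropping the filter adds genes. At 170 to 182 reads in 2 of 3 siNC libraries, depth limits Lims2 more than the other adaptors except Pdlim1.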

Other observations

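LIM-domain genes below the test's level included Pdlim4, a PDZ-LIM gene, at 0.325, 0.248 and 0.383 FPKM in siYBX1 libraries 1 to 3 and 0.367, 0.957 and 0.701 FPKM in siNC libraries 1 to 3, and Fhl4, an FHL gene, at 0.199, 0.212 and 0.416 FPKM in siYBX1 libraries 1 to 3 and 0.485, 0.471 and 0.424 FPKM in siNC libraries 1 to 3. The groups overlapped for Pdlim4, and for Fhl4 the highest siYBX1 library lay just under the lowest siNC library. These genes were chosen after their values were seen.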
